A study of Mus musculus with 9 samples.

Results

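The 9 genes described here are the STAT transcription factors Stat2, Stat3, Stat4, Stat5a, Stat5b and Stat6 and the JAK kinases Jak1, Jak2 and Jak3, taken by name from a table of 44806 gene entries counted in 9 mouse tumour libraries. For 8 of them the name stands in the table's name column. Stat5a is listed there under its identifier, MGP_C57BL6NJ_G0019563, and was recognised by the gene symbol in the deposited description of that entry. All 9 passed the filter on low counts, which left 16596 entries for testing. The tumours were grown from MB49, a mouse bladder cancer line that the labels give as overexpressing HER2, so every library, the control libraries included, comes from a tumour with that change. Mice were given Lipo-TriTE (3 libraries), Lipo-BiTE (3 libraries) or PBS, the buffer used as control (3 libraries), and the study compares tumours after each. The names BiTE and TriTE are in general use for engineered proteins that link T cells to tumour cells through antibody fragments; what the Lipo carrier holds is not given in the labels, and no group given the carrier alone was analysed here. The labels give no age, sex, host strain, dose or time, and do not say whether a library is 1 animal or a pool. The p-values therefore measure library-to-library spread, which may be technical.

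The material is named in 2 ways. The study's design text speaks of CD3+ T cells sorted from the tumours, whereas the extraction protocol describes frozen tumour homogenised whole. Genes that mark other cells were abundant throughout: the 8 epithelial and tumour genes summed to 397 to 679 CPM in Lipo-TriTE libraries, 613 to 841 CPM in Lipo-BiTE libraries and 902 to 975.4 CPM in PBS libraries. The 8 fibroblast genes summed to 936 to 1458 CPM in Lipo-TriTE, 1370 to 2312 CPM in Lipo-BiTE and 2079 to 3171 CPM in PBS libraries. The T cell gene Cd3e had 2.82 to 4.75 CPM in PBS libraries. The libraries are therefore read here as mixtures of cells and not as sorted T cells. CPM is a read count scaled to a common library size by the TMM method. Totals ran from 13152783 to 20273548 counts a library, where 3 counts correspond to 0.146 to 0.237 CPM. Replicates were uneven: a chi-square per degree of freedom over genes was 4.81 between PBS libraries 2 and 3, and 34.7 and 37.2 between each of these and PBS library 1; in the treated groups it was 22.6 to 89.7.

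JAK kinases sit on the inner ends of cytokine and interferon receptors. When a cytokine brings the receptor chains together, the kinases phosphorylate the chains and then the STAT proteins that dock there, which pair up, enter the nucleus and bind DNA. Each receptor family uses its own set: JAK3 works with the common gamma chain of the interleukin-2 family together with JAK1, JAK2 serves receptors such as those for interferon gamma, interleukin-12 and granulocyte-macrophage colony-stimulating factor, STAT2 carries type I interferon signals, STAT3 the interleukin-6 family, STAT4 interleukin-12, STAT5A and STAT5B interleukin-2 and related cytokines, and STAT6 interleukin-4. Activity of these proteins depends on phosphorylation, which RNA counts do not measure.

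Short DNA elements read by these factors were looked for at the members' own start sites, because some STAT genes are known interferon targets. RefSeq windows of GRCm38.p6, from 250 bases before to 50 bases after a start, were found for 9 of 9 members, 12 windows in all. The gamma-activated site, spelled TTCNNNGAA, was in 0 of the 12 windows and in 8.3% of all 32851 promoters. The core of the interferon-stimulated response element, spelled as 2 copies of GAAA separated by any 2 bases, was in 2 of the 12 windows and in 3.44% of all promoters; both strands were searched, and the motifs overlapped each other in 24 promoters. The 2 windows that hold it are shown 5′ to 3′ on the gene's strand with the match in capitals. The first is the Stat2 promoter (chr10:128270248-128270547, plus strand), where the match begins at base -222 from the start and is read on the opposite strand. The other is the second of 2 Stat4 starts (chr1:52007990-52008289, plus strand), with its match at base -97. A match of letters is a description and not a measured binding site.
Stat2: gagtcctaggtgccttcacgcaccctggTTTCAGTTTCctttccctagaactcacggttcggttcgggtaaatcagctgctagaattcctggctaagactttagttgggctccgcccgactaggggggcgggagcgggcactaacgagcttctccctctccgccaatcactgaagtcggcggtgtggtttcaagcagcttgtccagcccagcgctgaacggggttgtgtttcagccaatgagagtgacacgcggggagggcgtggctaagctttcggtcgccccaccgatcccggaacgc
Stat4: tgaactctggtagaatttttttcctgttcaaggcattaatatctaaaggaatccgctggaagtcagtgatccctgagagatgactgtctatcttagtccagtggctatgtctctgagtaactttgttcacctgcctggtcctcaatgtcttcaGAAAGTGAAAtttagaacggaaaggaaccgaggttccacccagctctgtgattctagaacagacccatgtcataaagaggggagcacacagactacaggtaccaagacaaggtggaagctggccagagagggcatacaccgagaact

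Across the 9 genes, both treatments gave higher levels than PBS for most members and lower levels for none that passed the test. In Lipo-TriTE tumours 6 of 9 members were higher than in PBS tumours (Stat2, Stat4, Stat5a, Stat5b, Jak1 and Jak2), 0 were lower and 3 did not pass, where 18.9% of all tested genes were called higher, 14.8% lower and 33.6% in either direction. In Lipo-BiTE tumours 7 of 9 were higher than in PBS tumours (Stat2, Stat3, Stat4, Stat5a, Stat5b, Stat6 and Jak2), 0 were lower and 2 did not pass, against 13.8% called higher, 3.22% lower and 17% in either direction among all genes. Between Lipo-TriTE and Lipo-BiTE tumours only Stat4 passed, higher in Lipo-TriTE, where 4.88% of all genes were called higher, 5.21% lower and 10.1% in either direction. Called means an adjusted p under 0.05 in edgeR's quasi-likelihood test with Benjamini-Hochberg adjustment over all 16596 genes. At an unadjusted p under 0.05 edgeR found 0 members lower in each of the 3 comparisons, and DESeq2 called 0 lower as well.

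The median log2 fold change of the 9 members was 0.87 for Lipo-TriTE against PBS, where the median of all genes was 0.00. It was 0.96 for Lipo-BiTE against PBS, beside -0.02 for all genes, and -0.05 for Lipo-TriTE against Lipo-BiTE, beside -0.01. The 2 comparisons with PBS share the same 3 PBS libraries. Libraries of the 2 groups did not overlap for 8 of 9 members in Lipo-TriTE against PBS (Jak3 overlapped), for 9 of 9 in Lipo-BiTE against PBS, and for 2 of 9, Stat4 and Jak1, in Lipo-TriTE against Lipo-BiTE. The same held for 49.5%, 42.1% and 30.5% of all tested genes in those 3 comparisons. The count in Lipo-BiTE against PBS fell when some single libraries were left out. Without Lipo-BiTE library 1 or without PBS library 1, 3 members passed. Without Lipo-BiTE library 2, PBS library 2 or PBS library 3, 4 passed. Calls among all genes fell as well in these fits, from 2817 to between 1535 and 1876.

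**Figure D1:**
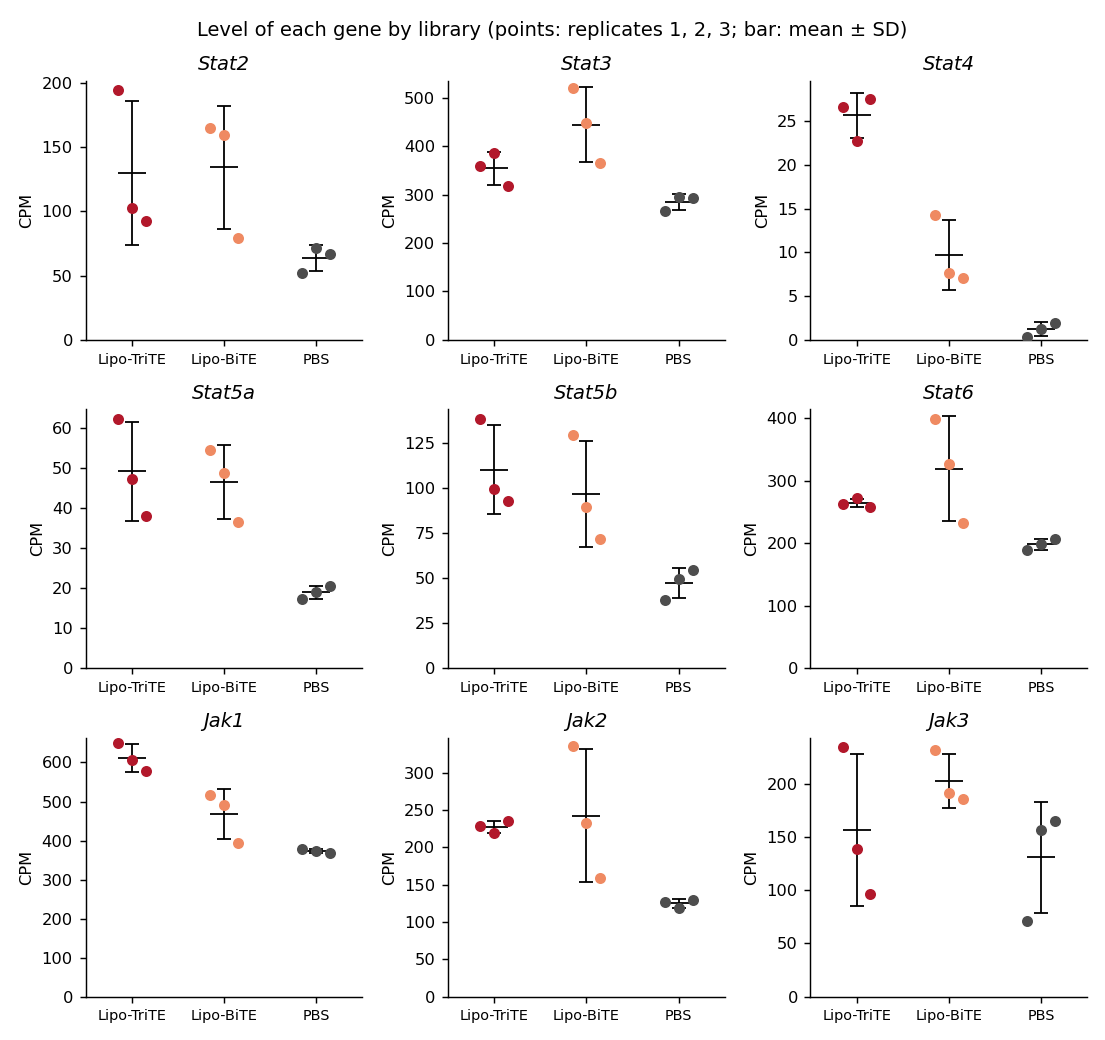
Level of each STAT and JAK gene in every library, in CPM on a linear axis, with Lipo-TriTE, Lipo-BiTE and PBS libraries from left to right. Stat4 sits at 22.8 to 27.6 CPM in Lipo-TriTE, 7.13 to 14.3 CPM in Lipo-BiTE and 0.371 to 1.96 CPM in PBS libraries, and Jak3 overlaps between Lipo-TriTE and PBS.

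**Figure D2:**
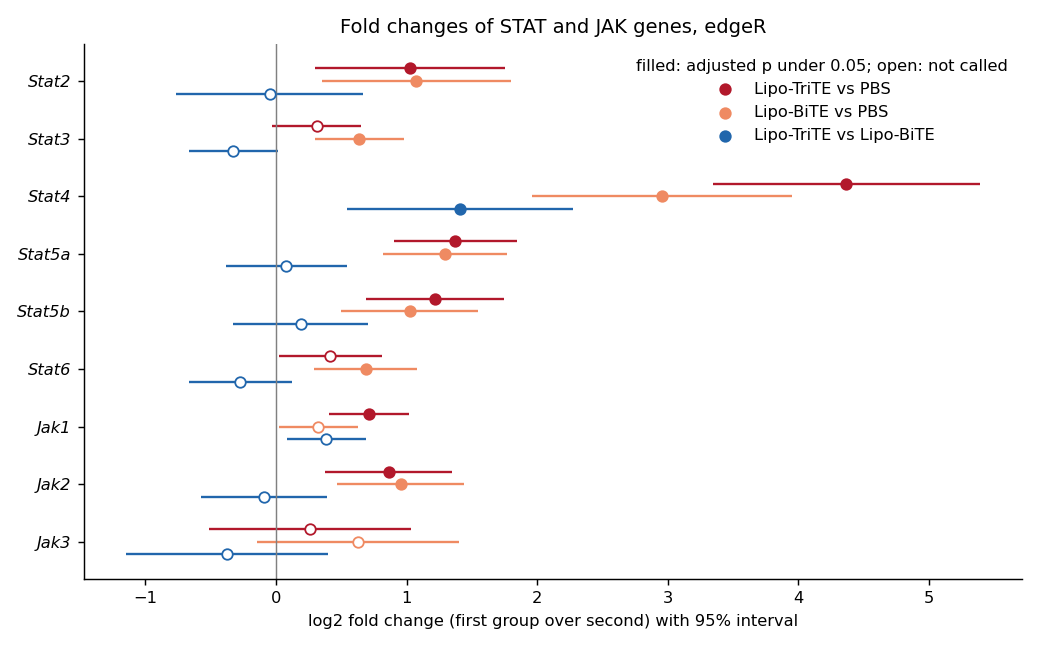
Log2 fold change of each member with its error in the 3 comparisons, from the fit across all genes. Stat4 lies farthest from 0 in the 2 comparisons with PBS, at 4.37 for Lipo-TriTE and 2.96 for Lipo-BiTE.

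Stat4, the factor that carries interleukin-12 signals in T and NK cells, was the member with the widest range. It was counted 548, 359 and 426 times in Lipo-TriTE libraries (26.6, 22.8 and 27.6 CPM), 181, 101 and 98 times in Lipo-BiTE libraries (14.3, 7.6 and 7.13 CPM) and 5, 22 and 33 times in PBS libraries (0.371, 1.3 and 1.96 CPM). The 3 groups fell into separate bands with no overlap, Lipo-TriTE highest and PBS lowest. It was 20.6-fold higher in Lipo-TriTE than in PBS tumours (log2 fold change 4.37 ± 0.46 SE, edgeR adjusted p = 1e-04), more than 97.2% of all tested genes. In Lipo-BiTE against PBS tumours it was 7.76-fold higher (2.96 ± 0.45, edgeR adjusted p = 0.0014). The direct comparison of Lipo-TriTE with Lipo-BiTE gave 2.66-fold (1.41 ± 0.39, edgeR adjusted p = 0.046). That last call was lost without any one of Lipo-TriTE libraries 1, 2 and 3, Lipo-BiTE libraries 2 and 3 and PBS library 2 (adjusted p up to 0.17 over all alternatives), while both calls against PBS held in all 15 alternatives. An entry of predicted type, Gm28177, overlaps Stat4 on the same strand over 28770 bases and had 0 to 8 counts a library.

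T cell genes moved with Stat4. The 11 T cell genes all passed in all 3 comparisons, and their summed level was 985 to 1686 CPM in Lipo-TriTE, 228 to 413 CPM in Lipo-BiTE and 47.6 to 57.1 CPM in PBS libraries. The 6 NK cell genes summed to 111 to 160 CPM in Lipo-TriTE, 54.6 to 103 CPM in Lipo-BiTE and 21.1 to 22.3 CPM in PBS libraries, and all 6 passed in both treatments against PBS. Fewer cells of a type and less RNA per cell cannot be told apart in whole tissue, and the part of these cells in the Stat4 result was not tested. Stat4 was also set against Cd3e, an invariant chain of the T cell receptor complex. The ratio of its CPM to that of Cd3e was 0.252, 0.328 and 0.451 in Lipo-TriTE libraries, 0.404, 0.395 and 0.538 in Lipo-BiTE libraries and 0.132, 0.319 and 0.412 in PBS libraries. These ranges overlapped in the 2 comparisons with PBS and between the treatments (exact two-sided permutation p = 0.6 for Lipo-TriTE against PBS and 0.3 for the other 2, where 3 against 3 libraries can give no p below 0.1). Relative to Ptprc, the pan-leukocyte gene CD45, the Stat4 ratios averaged 0.0179 ± 0.00309 in Lipo-TriTE, 0.0117 ± 0.00492 in Lipo-BiTE and 0.0129 ± 0.00745 in PBS libraries (SD, n = 3 each), again with overlap. Relative to the summed T cell genes, Stat4 averaged 0.0214 ± 0.00503 in Lipo-TriTE, 0.0304 ± 0.00461 in Lipo-BiTE and 0.0217 ± 0.0134 in PBS libraries. There the treatments did not overlap, Lipo-TriTE being lower (exact two-sided permutation p = 0.1), while both overlapped with PBS.

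Stat5a and Stat5b, the near-identical factors downstream of interleukin-2, moved together. Stat5a had 62.4, 47.2 and 37.9 CPM in Lipo-TriTE libraries, 54.4, 48.7 and 36.4 CPM in Lipo-BiTE libraries and 17.3, 19.0 and 20.6 CPM in PBS libraries. Stat5b had 138, 99.1 and 92.8 CPM in Lipo-TriTE libraries, 129, 89.1 and 71.3 CPM in Lipo-BiTE libraries and 38.1, 49.6 and 54.4 CPM in PBS libraries. Every treated library was above every PBS library for both genes, and the treatments overlapped with each other. Stat5a was 2.59-fold higher in Lipo-TriTE (log2 fold change 1.37 ± 0.21 SE, edgeR adjusted p = 0.00091) and 2.45-fold higher in Lipo-BiTE (1.29 ± 0.21, edgeR adjusted p = 0.0021) than in PBS tumours. Stat5b was 2.32-fold higher in Lipo-TriTE (edgeR adjusted p = 0.0032) and 2.04-fold higher in Lipo-BiTE (edgeR adjusted p = 0.014) than in PBS tumours; the second call was lost without Lipo-BiTE library 1 or PBS library 1 (adjusted p up to 0.057). Between the treatments neither passed (edgeR adjusted p = 0.86 and 0.67). The 2 genes are neighbours on chromosome 11 of the C57BL/6NJ models used by the table, Stat5b at 106762175 to 106836431 on the minus strand, then 9605 bases on Stat5a at 106846037 to 106876362 on the plus strand, then 1636 bases on Stat3. Of the 50-base stretches in the longest Stat5a transcript 15.8% also occur in Stat5b transcripts, and 11.8% the other way, so how the authors' counting shared such reads makes the split between them uncertain; no other pair of members shared any.

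Stat2, the factor that partners with interferon regulatory factor 9 after type I interferon, had 194, 103 and 92.5 CPM in Lipo-TriTE libraries, 165, 159 and 79.0 CPM in Lipo-BiTE libraries and 52.4, 71.5 and 67.2 CPM in PBS libraries. All treated libraries were above all PBS libraries, with 1 Lipo-TriTE library well above the other 2 and 1 Lipo-BiTE library well below. It was 2.04-fold higher in Lipo-TriTE (log2 fold change 1.03 ± 0.33 SE, edgeR adjusted p = 0.035) and 2.11-fold higher in Lipo-BiTE (1.08 ± 0.33, edgeR adjusted p = 0.049) than in PBS tumours. Both calls are near the threshold: the first was lost without Lipo-TriTE library 1, where the fold was 1.55, or without any one PBS library, and the second in 9 of 15 alternatives (adjusted p up to 0.17).

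Stat3, downstream of the interleukin-6 family and interleukin-10, had 359, 386 and 318 CPM in Lipo-TriTE libraries, 520.0, 448 and 365 CPM in Lipo-BiTE libraries and 267, 296 and 293 CPM in PBS libraries. Stat6, downstream of interleukin-4 and interleukin-13, had 263, 271 and 258 CPM in Lipo-TriTE libraries, 399, 327 and 232 CPM in Lipo-BiTE libraries and 189, 198 and 206 CPM in PBS libraries. For both genes the treated libraries were all above the PBS libraries by a small margin, and the Lipo-BiTE libraries were the most spread. Against PBS, Stat3 was 1.56-fold higher in Lipo-BiTE tumours (edgeR adjusted p = 0.017) and Stat6 1.61-fold higher (edgeR adjusted p = 0.023). These calls were lost in 5 and 6 of 15 alternatives, with adjusted p up to 0.064 and 0.089. In Lipo-TriTE tumours neither passed: the log2 fold change was 0.31 for Stat3 (95% interval -0.03 to 0.65, edgeR adjusted p = 0.14) and 0.42 for Stat6 (0.02 to 0.81, edgeR adjusted p = 0.096). Stat6 did pass there in a fit of the 2 groups alone (adjusted p = 0.022) and without Lipo-BiTE library 3 (0.026). The direct difference between Lipo-TriTE and Lipo-BiTE did not pass for Stat3 (log2 -0.33, edgeR adjusted p = 0.21) or Stat6 (log2 -0.27, edgeR adjusted p = 0.37).

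Jak1, the kinase shared by most cytokine receptors, had 649, 607 and 577 CPM in Lipo-TriTE libraries, 516, 491 and 395 CPM in Lipo-BiTE libraries and 378, 372 and 369 CPM in PBS libraries. The groups did not overlap, and the PBS libraries lay within 10 CPM of each other. It was 1.64-fold higher in Lipo-TriTE than in PBS tumours (log2 fold change 0.71 ± 0.14 SE, edgeR adjusted p = 0.0029), a call kept in all 15 alternatives. In Lipo-BiTE against PBS it did not pass (0.32, 95% interval 0.02 to 0.63, edgeR adjusted p = 0.13). The direct comparison of Lipo-TriTE with Lipo-BiTE gave 1.31-fold (0.39 ± 0.14) and did not pass (edgeR adjusted p = 0.1), although DESeq2 gave an adjusted p of 0.022 and scaling by total counts one of 0.036.

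Jak2, a kinase of the interferon gamma and interleukin-12 receptors, had 229, 219 and 235 CPM in Lipo-TriTE libraries. It had 336, 233 and 159 CPM in Lipo-BiTE libraries and 126, 118 and 130.3 CPM in PBS libraries. All treated libraries were above all PBS libraries, and the Lipo-BiTE libraries spanned both sides of the Lipo-TriTE ones. It was 1.82-fold higher in Lipo-TriTE (log2 fold change 0.87 ± 0.22 SE, edgeR adjusted p = 0.012) and 1.94-fold higher in Lipo-BiTE tumours (0.96 ± 0.22, edgeR adjusted p = 0.013) than in PBS tumours. Both calls held in all 15 alternatives, and the treatments did not differ by the test (edgeR adjusted p = 0.84).

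Jak3, the kinase of the common gamma chain found mainly in blood cells, did not pass in any comparison. It had 235, 138 and 96.3 CPM in Lipo-TriTE libraries, 231, 191 and 185 CPM in Lipo-BiTE libraries and 70.9, 156 and 165 CPM in PBS libraries. PBS library 1 and Lipo-TriTE library 3 were low and Lipo-TriTE library 1 was high, so the Lipo-TriTE and PBS libraries overlapped. The log2 fold change was 0.26 for Lipo-TriTE against PBS (95% interval -0.51 to 1.03, edgeR adjusted p = 0.61) and 0.63 for Lipo-BiTE against PBS (-0.14 to 1.41, edgeR adjusted p = 0.24). The first changed sign without Lipo-TriTE library 1 (-0.14) or PBS library 1 (-0.06). A further gene, Insl3, overlaps Jak3 on the same strand over 1011 bases. Counts of Insl3 were 8.35% to 17.9% of Jak3 counts in Lipo-TriTE, 9.14% to 10.4% in Lipo-BiTE and 12.8% to 14.3% in PBS libraries. The rule for reads in the overlap was not given in the sources used here, so its effect on the Jak3 counts is not known. Smaller overlaps were 40 bases of Stat6 with Nab2 and 4 bases of Jak1 with Raver2.

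Per kilobase of gene length the order of levels was alike in the 3 groups at its low end. Mean CPM per kilobase in Lipo-TriTE tumours was 84.5 for Jak1, 60.3 for Stat6, 45.7 for Stat3, 45.3 for Jak2, 35.5 for Jak3, 29.2 for Stat2, 21.2 for Stat5b, 6.88 for Stat5a and 6.63 for Stat4. Neighbours from Stat3 down to Stat5b overlapped between libraries, as did Stat5a and Stat4. In Lipo-BiTE tumours Stat6 came first at 72.8 and Jak1 second at 64.6, with overlap, and Stat4 was last at 2.5, below Stat5a at 6.51 without overlap. In PBS tumours Jak1 led at 51.6 and Stat4 was last at 0.313, below Stat5a at 2.65, and Stat3, Jak3 and Jak2 were the neighbours that overlapped. The 6 STAT genes given here summed to 169.9 ± 20.9 CPM per kilobase in Lipo-TriTE, 187.9 ± 46.7 in Lipo-BiTE and 108 ± 7.98 in PBS tumours (SD, n = 3 each). The 3 JAK genes summed to 165 ± 20.7 CPM per kilobase in Lipo-TriTE, 158.8 ± 31.2 in Lipo-BiTE and 106 ± 11.1 in PBS tumours.

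The makeup of each family was also described as shares, which need no scaling between libraries. Stat4 made up 3.94% ± 0.674 of the summed per-length STAT level in Lipo-TriTE tumours, 1.31% ± 0.293 in Lipo-BiTE tumours and 0.28% ± 0.175 in PBS tumours (SD, n = 3 each), with no overlap in any pair of groups (exact two-sided permutation p = 0.1 for each pair, the smallest that 3 against 3 libraries can give). Stat5a made up 4.01% ± 0.514 of it in Lipo-TriTE, 3.5% ± 0.197 in Lipo-BiTE and 2.45% ± 0.0776 in PBS tumours. Stat6 was the largest part per length in each group, at 35.8% ± 4.07 in Lipo-TriTE, 38.7% ± 0.606 in Lipo-BiTE and 41.8% ± 1.58 in PBS tumours. That rank depends on the division by gene length. By counts alone Stat3 was the largest part, at 38.1% in Lipo-TriTE, 42.7% in Lipo-BiTE and 46.4% in PBS tumours. Among the 3 JAK genes Jak1 made up 51.4% ± 3.31 in Lipo-TriTE, 41.1% ± 3.14 in Lipo-BiTE and 49.1% ± 6.03 in PBS tumours.

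**Figure D3:**
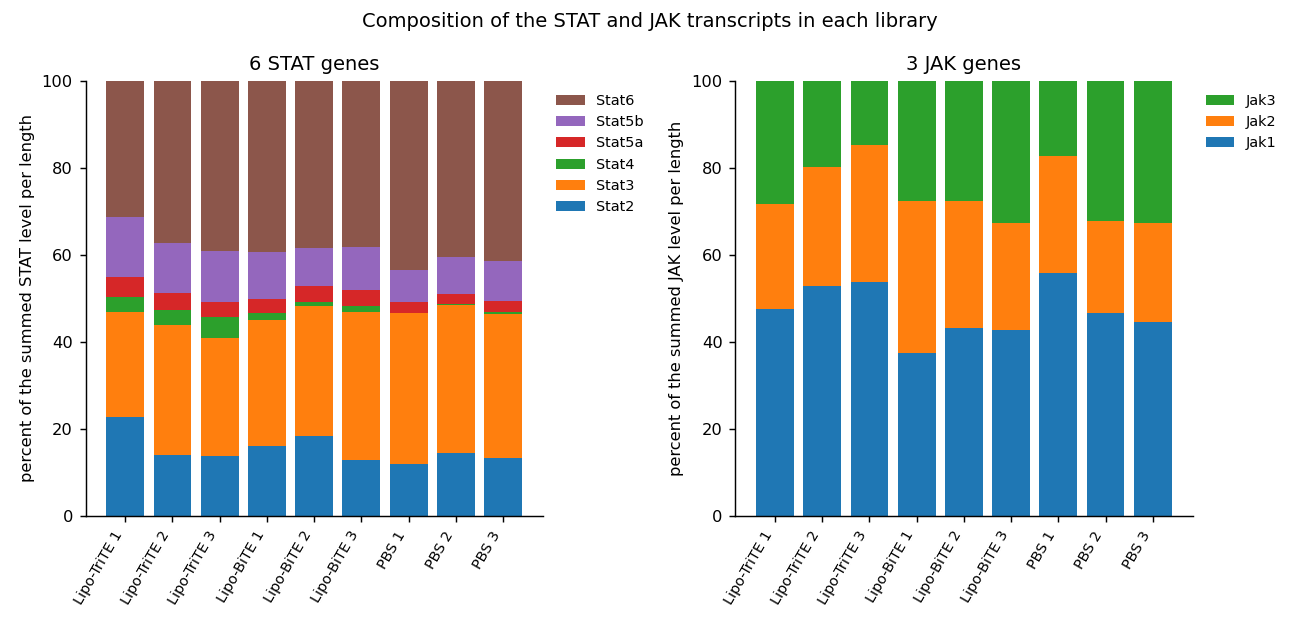
Share of each gene in the summed per-length level of the 6 STAT genes and of the 3 JAK genes, in percent, for every library. Stat4 is 3.94% of the STAT level in Lipo-TriTE, 1.31% in Lipo-BiTE and 0.28% in PBS libraries on average.

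The 3 leukocyte genes Cd3e, Ptprc and Csf1r rose by larger folds than every member but Stat4. Cd3e had 106, 69.4 and 61.2 CPM in Lipo-TriTE libraries, 35.4, 19.3 and 13.2 CPM in Lipo-BiTE libraries and 2.82, 4.07 and 4.75 CPM in PBS libraries. It was 20.2-fold higher in Lipo-TriTE (edgeR adjusted p = 6.8e-05) and 5.78-fold higher in Lipo-BiTE tumours (edgeR adjusted p = 0.0015) than in PBS tumours. Ptprc was 16.4-fold higher in Lipo-TriTE and 10.6-fold higher in Lipo-BiTE than in PBS tumours. Csf1r, the receptor that marks macrophages and monocytes, was 6.61-fold higher in Lipo-TriTE and 13-fold higher in Lipo-BiTE than in PBS tumours (edgeR adjusted p from 0.00011 to 0.00076 for both genes). Relative to Cd3e, the other 8 members were lower in both treatments than in PBS, without overlap. The rise of the denominator sets this for most genes: 87.9% of all tested genes were lower relative to Cd3e without overlap in Lipo-TriTE against PBS, and 81.1% in Lipo-BiTE against PBS, so the count is no result about the members. The ratio to Cd3e was 1.93 ± 0.327 in Lipo-TriTE, 10.2 ± 3.72 in Lipo-BiTE and 32.8 ± 6.85 in PBS libraries for Jak3 (SD, n = 3 each). For Stat5b it was 1.417 ± 0.104 in Lipo-TriTE, 4.56 ± 0.874 in Lipo-BiTE and 12.4 ± 1.04 in PBS libraries. For Jak1 it was 8.10 ± 1.74 in Lipo-TriTE, 23.3 ± 7.86 in Lipo-BiTE and 101.0 ± 29.4 in PBS libraries. Relative to Ptprc the same 8 members were lower in both treatments without overlap, as were 86.8% of all tested genes in Lipo-TriTE and 85.4% in Lipo-BiTE against PBS, for example Jak3 at 0.104 ± 0.0297 in Lipo-TriTE, 0.272 ± 0.158 in Lipo-BiTE and 1.43 ± 0.396 in PBS libraries.

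**Figure D4:**
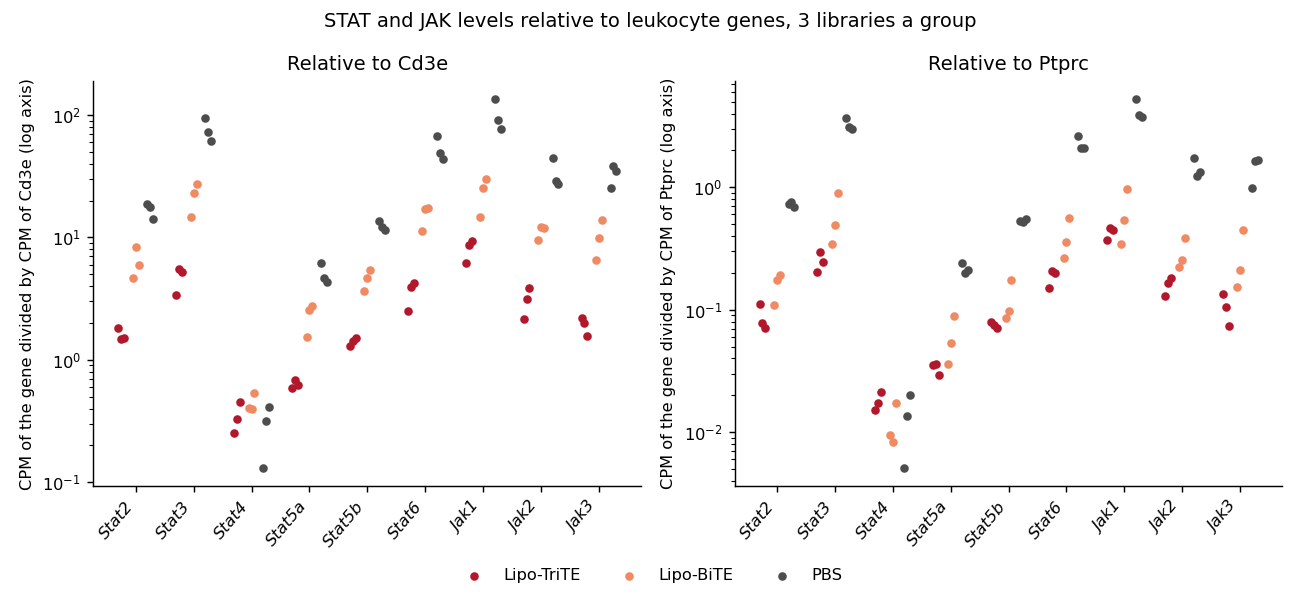
CPM of each member divided by that of Cd3e (left) and of Ptprc (right) in every library, on log axes. Stat4 overlaps between the groups, while each of the other 8 members is lower in both treatments than in PBS libraries, as are 81.1% to 87.9% of all tested genes.

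Other cell types moved too. The 10 macrophage and monocyte genes summed to 570.2 to 739 CPM in Lipo-TriTE, 753 to 1783 CPM in Lipo-BiTE and 98.2 to 161 CPM in PBS libraries, and all 10 passed in both treatments against PBS. The 7 B cell genes summed to 386 to 1038 CPM in Lipo-TriTE, 9.74 to 17.1 CPM in Lipo-BiTE and 7.43 to 11.1 CPM in PBS libraries, and all 7 were higher in Lipo-TriTE than in either other group. The 6 neutrophil genes summed to 1446 to 4447 CPM in Lipo-TriTE, 1269 to 6666 CPM in Lipo-BiTE and 220.2 to 383 CPM in PBS libraries, and all 6 passed in both treatments. The 7 dendritic cell genes summed to 404 to 502 CPM in Lipo-TriTE, 137 to 347 CPM in Lipo-BiTE and 37.7 to 49.96 CPM in PBS libraries, with 7 and 5 passed in Lipo-TriTE and Lipo-BiTE against PBS. Of the 8 fibroblast genes 4 were lower in Lipo-TriTE and 5 lower in Lipo-BiTE than in PBS tumours. Of the 8 epithelial and tumour genes 6 were tested. In Lipo-TriTE against PBS 2 of these were higher and 2 lower (median log2 fold change 0.11). In Lipo-BiTE against PBS 2 were higher and 0 lower (median -0.08), with 1 lower at an unadjusted p under 0.05. The 6 endothelial genes summed to 153 to 225 CPM in Lipo-TriTE, 221 to 239 CPM in Lipo-BiTE and 135 to 159 CPM in PBS libraries, with overlap between Lipo-TriTE and PBS. Of the 5 endothelial genes tested, 3 were higher and 1 lower in Lipo-TriTE than in PBS tumours. In Lipo-BiTE against PBS 2 were higher and 0 lower, also 0 lower at an unadjusted p under 0.05 and by DESeq2. In PBS libraries the endothelial gene Erg and the epithelial gene Krt7 were at 0 counts, and no other listed marker was at 0 in all libraries of a group. The part of any of these cell types in the members' results was not tested.

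Genes whose level followed a member most closely were found by the root mean square difference of centred log2 CPM over the 9 libraries, among 10283 genes with a mean of at least 5 CPM. Stat2 was closest to Rnf31 (0.13), Dhx58 (0.14) and Isg20 (0.15), the last 2 known as interferon-induced genes. Stat4 was closest to Camk4 (0.32), Gpr183 (0.36) and Zc3h12d (0.37), all further away than the nearest gene of any other member. Stat3 lay nearest Zswim6 (0.08), Stat5a Twf2 (0.14), Stat5b Mycbp2 (0.09), Stat6 Ist1 (0.07), Jak1 Zhx2 (0.06), Jak2 Klf3 (0.08) and Jak3 Kmt2b (0.06). Among the members themselves Stat3 and Stat6 were nearest (0.10), then Stat5a and Stat5b (0.17), whereas the nearest member to Stat4 was Stat5a at 1.39. The libraries shared by these measures are the same 9, and a gene with a narrow range is near to many others.

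The genes around the members were taken as lists of ligands, receptor chains, inhibitors and target genes. Against PBS, 18.9% of all tested genes were called higher and 14.8% lower in Lipo-TriTE, and 13.8% and 3.22% in Lipo-BiTE. Of 31 tested receptor chains, 20 were higher and 2 lower in Lipo-TriTE than in PBS tumours (median log2 fold change 1.53) and 19 were higher and 0 lower in Lipo-BiTE than in PBS tumours (median 1.54, with 2 lower at an unadjusted p under 0.05 and 0 lower by DESeq2). Il7r, the interleukin-7 receptor chain that pairs with the common gamma chain, averaged 138 ± 12.7 CPM in Lipo-TriTE, 36.6 ± 11 CPM in Lipo-BiTE and 5.83 ± 0.778 CPM in PBS tumours (SD, n = 3 each), and was 3.77-fold higher in Lipo-TriTE than in Lipo-BiTE (edgeR adjusted p = 0.001). Il2rg, the common gamma chain itself and partner of Jak3, averaged 151 ± 37.0 CPM in Lipo-TriTE, 62.6 ± 25.7 CPM in Lipo-BiTE and 8.54 ± 1.07 CPM in PBS tumours. It was 17.7-fold higher in Lipo-TriTE and 7.31-fold higher in Lipo-BiTE than in PBS tumours (edgeR adjusted p = 3e-05 and 0.00076). Between the treatments 4 receptor chains were higher in Lipo-TriTE (Il7r, Il27ra, Il9r and Il2rg) and 1, Il11ra1, was lower. The shares over all tested genes there were 4.88% higher and 5.21% lower. The Il2rg call was lost without Lipo-TriTE library 3 or Lipo-BiTE library 2 (adjusted p up to 0.089), and that of Il9r without Lipo-TriTE library 1 or Lipo-BiTE library 2 (up to 0.051). Osmr and Il11ra1 were the 2 that fell in Lipo-TriTE against PBS.

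Of 17 tested ligands, 9 were higher and 2 lower in Lipo-TriTE and 8 higher and 0 lower in Lipo-BiTE, both against PBS, with median log2 fold changes of 1.48 and 1.52. The shares over all tested genes were 18.9% higher and 14.8% lower in Lipo-TriTE, and 13.8% and 3.22% in Lipo-BiTE. Neither an unadjusted p under 0.05 nor DESeq2 gave a lower ligand in Lipo-BiTE. Il12b, the subunit shared by interleukin-12 and interleukin-23, averaged 5.88 ± 1.91 CPM in Lipo-TriTE, 1.82 ± 0.332 CPM in Lipo-BiTE and 0.529 ± 0.18 CPM in PBS tumours, and was 3.22-fold higher in Lipo-TriTE than in Lipo-BiTE (edgeR adjusted p = 0.025). That call was lost in 6 of 15 alternatives, among them without Lipo-TriTE library 2 or 3 or any one Lipo-BiTE library (adjusted p up to 0.1). Lif and Csf1, a cytokine of the interleukin-6 family and the macrophage growth factor, were lower in Lipo-TriTE than in Lipo-BiTE, at 0.441-fold and 0.356-fold (edgeR adjusted p = 0.0079 and 0.0099). Osm, another member of the interleukin-6 family, averaged 255 ± 88.9 CPM in Lipo-TriTE and 373 ± 283 CPM in Lipo-BiTE, against 23.6 ± 7.75 CPM in PBS tumours.

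Among all tested genes 18.9% were called higher and 14.8% lower in Lipo-TriTE than in PBS tumours. Of 17 tested inhibitors, 4 were higher and 4 lower there, not far from those shares, with a median log2 fold change of 0.18. The higher ones were Socs1, Socs3 and Cish, which are induced by cytokines and shut the pathway down, and Ptpn6, a phosphatase of blood cells. The lower ones were Socs5, Socs6, Pias2 and Pias3. In Lipo-BiTE 5 were higher than in PBS (Ptpn6, Socs3, Cish, Ptpn1 and Socs1) and 0 lower (median 0.34), also 0 at an unadjusted p under 0.05 and by DESeq2. The shares over all tested genes in that comparison were 13.8% higher and 3.22% lower. Socs3 averaged 351 ± 36.4 CPM in Lipo-TriTE and 658 ± 365 CPM in Lipo-BiTE, against 90.0 ± 14.7 CPM in PBS tumours. Between the treatments 4.88% of all tested genes were called higher in Lipo-TriTE and 5.21% lower. Pias3 alone passed among the inhibitors, at 0.674-fold in Lipo-TriTE relative to Lipo-BiTE (edgeR adjusted p = 0.042). That call was lost in 11 of 15 alternatives, among them leaving out any one library except Lipo-BiTE library 1 and PBS library 1 (adjusted p up to 0.13).

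Targets listed for each STAT were mostly higher in the treated tumours. Among all tested genes 18.9% were called higher and 14.8% lower in Lipo-TriTE, and 13.8% higher and 3.22% lower in Lipo-BiTE, each against PBS. Leukocyte genes rose as well, and their part in these counts was not tested. Against PBS, STAT5 targets passed as higher for 10 of 11 in Lipo-TriTE and 10 of 11 in Lipo-BiTE, and STAT6 targets for 9 of 11 in each. STAT2 targets passed for 8 of 10 in Lipo-TriTE and 6 of 10 in Lipo-BiTE, STAT3 targets for 7 of 11 and 8 of 11, and STAT4 targets for 6 of 10 and 7 of 10. The median log2 fold changes in Lipo-TriTE and Lipo-BiTE against PBS were 1.26 and 1.35 for STAT2, 1.22 and 2.02 for STAT3, 1.72 and 1.59 for STAT4, 1.87 and 2.18 for STAT5, and 2.96 and 2.61 for STAT6 targets. Lower targets were 1 in Lipo-TriTE, Osmr in the STAT3 list, and 0 in Lipo-BiTE, where DESeq2 also gave 0 and an unadjusted p under 0.05 gave 1 in the STAT3 list. Among STAT4 targets, Il18r1, a receptor chain of T and NK cells, averaged 63.1 ± 13.7 CPM in Lipo-TriTE, 34.9 ± 13.8 CPM in Lipo-BiTE and 6.21 ± 0.155 CPM in PBS tumours. Foxp3, the factor of regulatory T cells and a STAT5 target, averaged 27.0 ± 2.49 CPM in Lipo-TriTE, 12.8 ± 1.63 CPM in Lipo-BiTE and 2.05 ± 0.236 CPM in PBS tumours, and was 2.12-fold higher in Lipo-TriTE than in Lipo-BiTE (edgeR adjusted p = 0.0084). Oas2, an interferon-induced STAT2 target, averaged 116 ± 55.3 CPM in Lipo-TriTE and 129 ± 82.0 CPM in Lipo-BiTE, against 17.2 ± 5.32 CPM in PBS tumours.

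Between the treatments, 4.88% of all tested genes were called higher in Lipo-TriTE and 5.21% lower. At such shares a short list can hold few calls or none. In edgeR 0 of 10 STAT2 targets and 0 of 11 STAT3 targets passed, which is therefore no result about these targets. At an unadjusted p under 0.05, 1 STAT2 target and 5 STAT3 targets were lower in Lipo-TriTE, and DESeq2 called 1 and 0. Furin, 1 of 10 STAT4 targets, was 0.371-fold in Lipo-TriTE relative to Lipo-BiTE (edgeR adjusted p = 0.0086). Among 11 STAT5 targets Foxp3, Bcl2 and Tnfrsf4 were higher in Lipo-TriTE than in Lipo-BiTE, and Bcl2l1, a survival gene, was lower at 0.527-fold (edgeR adjusted p = 0.026). The Tnfrsf4 call was lost in 10 of 15 alternatives, among them leaving out any one library except PBS library 1 (adjusted p up to 0.11). The Bcl2l1 call was lost in 4, among them without Lipo-TriTE library 1 or 3 or Lipo-BiTE library 2 (up to 0.082). Without Lipo-BiTE library 2 the calls of Foxp3 (0.057) and Bcl2 (0.058) were lost too. Among STAT6 targets, Fcer2a and Ccl22 were higher in Lipo-TriTE than in Lipo-BiTE. Fcer2a is also in the B cell list, and its mean was 54.6 ± 26.9 CPM in Lipo-TriTE against 0.438 ± 0.38 CPM in Lipo-BiTE tumours. Ccl22, a chemokine, averaged 66.8 ± 29.5 CPM in Lipo-TriTE and 16 ± 0.997 CPM in Lipo-BiTE tumours (edgeR adjusted p = 0.0072). Several genes stand in more than 1 list, Socs3, Cish, Pim1, Osm and Il4ra among them, so the lists are not separate counts.

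**Figure D5:**
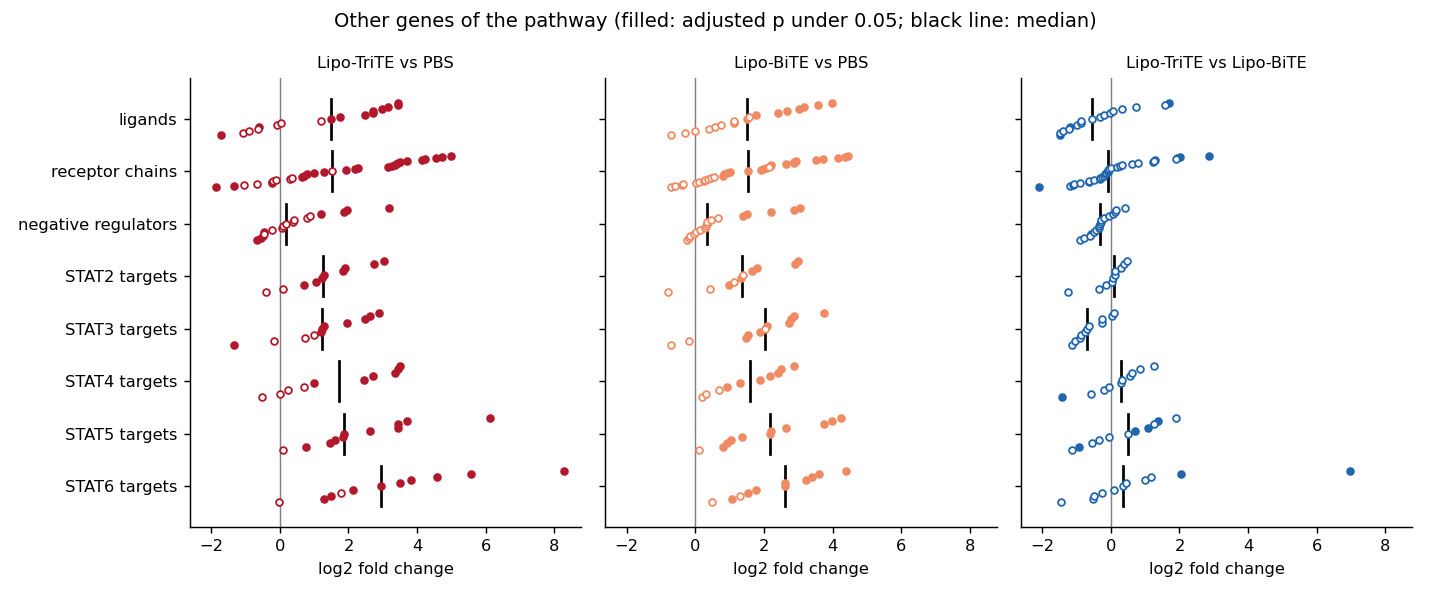
Log2 fold changes of the tested genes of each list in the comparisons with PBS and between the treatments. Receptor chains have a median of 1.53 in Lipo-TriTE against PBS and 1.54 in Lipo-BiTE against PBS, and -0.07 between the treatments.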

How the data were processed

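RNA labelled as mouse tumour was sequenced in 9 random-primed libraries, per the labels' protocols. The authors deposited unnormalised counts for each gene, all whole numbers, in one table with C57BL/6NJ gene identifiers. The aligner, the counter and any strand setting were not given in the sources used here. Its count columns read untreated where the labels say PBS, and were matched by replicate number to the one group left, which is an inference. Counts were analysed with edgeR 4.0.16 (R 4.3.3): TMM scaling, filterByExpr, robust quasi-likelihood F tests over all 9 libraries, and Benjamini-Hochberg adjustment over 16596 genes with a threshold of 0.05. DESeq2 1.42.0, other scalings and filters, a replicate block and leaving out each library were alternatives. The fit was tested on simulated data. Ratios and shares were compared with exact permutation tests.

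The members and lists were chosen with earlier results of these data known. Named genes were all 9 members, up to 4 genes of smallest p per list and comparison, Cd3e, Ptprc and Csf1r, and the 3 genes nearest each member; of these a part is printed, and genes named beyond them were called in a list of few calls. Of 194 list genes 185 were found by name, 4 by description, and 5 were not analysed here. Promoter sequences are from RefSeq on GRCm38.p6, another build than the count table's, and were matched by symbol only. The 95% intervals of fold changes come from the fit and hold the spread between libraries; the floor of 3 counts covers counting error only.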

Additional observations from a re-analysis of the deposited data

How the results depend on the processing

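Over the 9 members and 3 comparisons, the 15 alternatives gave 405 values, of which 356 kept direction and side of the threshold, 33 lost a call, 4 gained one and 12 changed sign; none of the sign changes was of a called gene. Leaving out 1 library moved the members called from 7 to between 3 and 7 for Lipo-BiTE against PBS, from 6 to between 5 and 7 for Lipo-TriTE against PBS, and from 1 to between 0 and 1 between the treatments. All genes called then numbered 1535 to 3627, 3966 to 5858 and 434 to 2197, against 2817, 5582 and 1675 with all libraries. For Lipo-TriTE against Lipo-BiTE, 2 members passed with DESeq2 and 2 with total counts in place of TMM, and 2679 genes passed with DESeq2 and 2993 without a filter. Scaling by total counts moved the median of all genes to -0.16 for Lipo-BiTE against PBS and 0.11 for Lipo-TriTE against Lipo-BiTE. For Lipo-TriTE against Lipo-BiTE it turned Stat2 to 0.093 and Jak2 to 0.058, and a filter of 1 CPM turned Stat2 to 0.0018. Without single libraries, the log2 fold change of Lipo-TriTE against Lipo-BiTE ran from -0.43 to 0.14 for Stat2, -0.28 to 0.19 for Jak2, -0.10 to 0.23 for Stat5a and -0.40 to 0.82 for Mx2, and that of Jak3 in Lipo-TriTE against PBS from -0.14 to 0.50. The cause was not tested. Replicate numbers did not pair the libraries: residuals of same-numbered libraries correlated at -0.19 to 0.08 and others at -0.17 to 0.24. With the replicate block, 6 members passed for Lipo-TriTE and 5 for Lipo-BiTE, each against PBS, and 0 between the treatments. Of 1440 values of the other named genes, 1345 kept direction and call, 56 lost a call, 38 gained one and 1 changed sign. With 3 libraries a group, differences under about the spread seen here cannot be told from it, and Stat4 in PBS rests on 5 to 33 counts.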
